A study of Mus musculus with 15 samples.

Results

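Expression of 10 genes of the unfolded protein response and the integrated stress response was described in brain tissue after intracerebral haemorrhage. They were Hspa5, Hsp90b1, Pdia4, Herpud1, Xbp1, Atf4, Ddit3, Atf3, Trib3 and Asns, picked by gene symbol from the 54532 genes of the count table. All 10 passed the filter on low counts that kept 18052 genes for testing. The symbol Ddit3 belongs to 2 Ensembl genes in the annotation, and ENSMUSG00000025408 was used, since the other had 0 counts in every library. Poly-A RNA was sequenced from the basal ganglia on the operated side of wild-type mice, in 15 libraries. The sham group (5 libraries) had sham surgery and distilled water by gavage. The ICH group (5 libraries) had an intracerebral haemorrhage and distilled water by gavage. The NYKD group (5 libraries) had the haemorrhage and Nao Yi Kang decoction, a herbal mixture dissolved in distilled water, given by gavage daily at 5.79 g/kg over 3 days. All brains were flushed with saline and taken on day 3. The sources used here state neither strain, sex and age nor how the haemorrhage was made.

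When unfolded proteins build up in the endoplasmic reticulum (ER), the membrane sensors IRE1, PERK and ATF6 are activated. IRE1 splices the Xbp1 transcript and ATF6 is cut to release a transcription factor, and together these raise chaperones such as Hspa5. PERK is also 1 of the kinases of the integrated stress response: they phosphorylate eIF2, which slows translation but lets Atf4 be translated, and ATF4 in turn drives Ddit3, Trib3 and Asns. Splicing of Xbp1 and translation of Atf4 are not read by counts per gene. In brain injury both branches have been studied for their links to neuronal death and recovery.

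Libraries held 13539203 to 19909140 counts. All 8 striatal projection neuron markers were detected in every library, as the labelled tissue would have, but their summed level was uneven. It was 763 CPM (counts scaled to library size with TMM factors) in sham replicate 1 against 3761 to 4759 in the other sham libraries. In ICH it was 601 to 1048 in replicates 1 to 3, 3722 in replicate 4 and 2769 in replicate 5, and in NYKD it was 129 to 1638. In NYKD replicate 4 it was 194. The summed level of 8 thalamic and cortical neuron markers was 1051 CPM in sham replicate 1 and 1044 in NYKD replicate 4, against 252 to 838 in the other libraries. Pan-neuronal sums were 5271 CPM in sham replicate 1 and 5817 in NYKD replicate 4. Whether the samples held the same parts of the brain was not tested. ICH replicate 4 also stood apart in the 8 neutrophil markers, with a sum of 549 CPM against 45.6 to 55.8 in the other ICH libraries. It had the smallest total and the lowest sum of microglial markers among ICH libraries, 563 CPM against 1239 to 1513. Results are therefore given with and without ICH replicate 4 and sham replicate 1 where that changed a call of a member or of a list gene given with values. List genes named without values carry no such check. In bulk tissue, fewer cells of a type and less RNA per cell cannot be told apart.

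Levels could be compared between genes after division by exon length, as CPM per kilobase (mean ± SD, n = 5). In sham tissue the ER chaperones Hsp90b1 and Hspa5 were the most abundant members, at 74.6 ± 4.64 and 68.7 ± 9.06 CPM per kilobase, and did not differ beyond their spread. Next came Atf4 at 41.1 ± 12.9, Asns at 34.2 ± 7.40, Herpud1 at 29.0 ± 5.03, Xbp1 at 26.5 ± 6.58 and Pdia4 at 22.9 ± 4.89 CPM per kilobase, each within the spread of its neighbours in this order. Ddit3 was lower at 13.3 ± 2.37, followed by Atf3 at 5.13 ± 4.08 and Trib3 at 0.740 ± 0.358 CPM per kilobase, where the spreads of the last pair met. In NYKD tissue Hspa5 was first, at 122 ± 8.15 CPM per kilobase, and Hsp90b1 second, at 116 ± 8.74, again within their spread. Pdia4 came next there, at 50.2 ± 8.99, ahead of Atf4 at 38.6 ± 2.57, Xbp1 at 30.1 ± 2.77, Herpud1 at 25.5 ± 3.40, Asns at 24.1 ± 6.28 and Atf3 at 20.4 ± 6.01 CPM per kilobase. Ddit3 and Trib3 were last, at 13.1 ± 2.72 and 1.25 ± 0.570 CPM per kilobase. The ICH means lay in the same order as in NYKD tissue, from 98.5 ± 26.1 for Hspa5 to 1.24 ± 0.601 CPM per kilobase for Trib3, with Pdia4 at 44.0 ± 12.3 and Atf4 at 43.3 ± 11.4 within their spread.

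ICH was compared with sham to ask what the haemorrhage changed by day 3. Among the members, the folding genes Hspa5 and Pdia4 were called as raised, and no member was called as lowered. That is 2 of 10, against 17% of all tested genes called in either direction (12.4% raised, 4.58% lowered), so the share of members lay near the background. Calls here are genes with p under 0.05, after Benjamini-Hochberg adjustment, in edgeR's quasi-likelihood test over all 18052 genes. The libraries of the groups did not overlap for 1 of 10 members, Asns, against 11.3% of all genes. Asns was lower in ICH and just missed the threshold (edgeR adjusted p = 0.0510). With each of the 15 libraries left out in turn, the Pdia4 call was kept 15 times and the Hspa5 call 2 times. NYKD was compared with sham to ask how treated haemorrhage tissue differed from unlesioned tissue. There Hspa5, Hsp90b1, Pdia4 and Atf3 rose and Asns fell, 5 of 10 members against 23.4% of all genes (15.3% raised, 8.08% lowered). Libraries of these groups did not overlap for 4 of 10 members, against 18.7% of all genes. NYKD was compared with ICH to ask what the decoction changed, and none of the 10 members was called there, against 3.46% of all genes (1.19% raised, 2.27% lowered). The 3 comparisons share libraries and are given side by side.

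**Figure D1:**
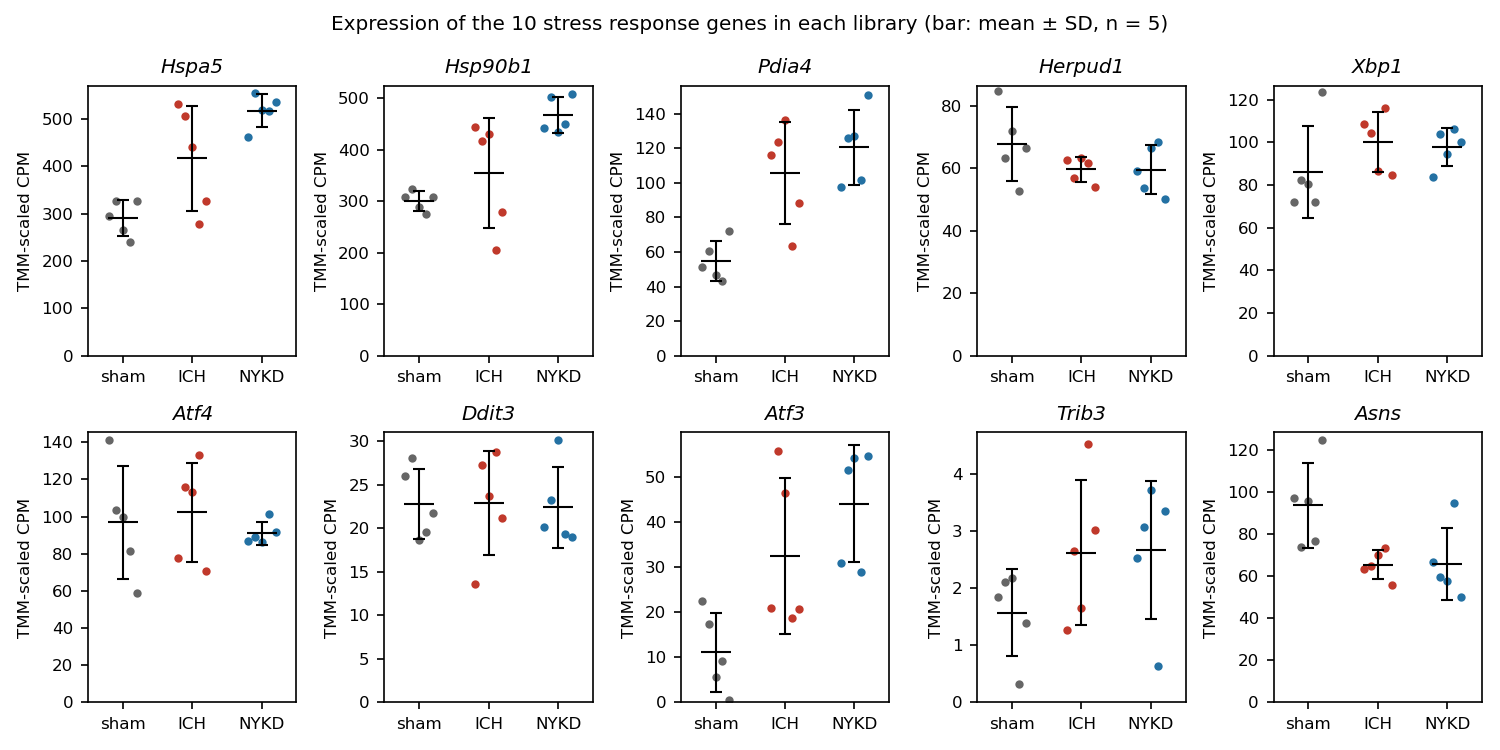
TMM-scaled CPM (vertical axis, from 0) of each of the 10 genes in the sham, ICH and NYKD groups; points are libraries and bars are mean ± SD (n = 5). All 5 NYKD libraries lie above all 5 sham libraries for Hspa5, Hsp90b1, Pdia4 and Atf3, while the 3 groups overlap for Ddit3, Atf4, Xbp1 and Herpud1.

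Hspa5 encodes BiP, the main Hsp70 chaperone of the ER and the partner that holds the stress sensors inactive. Hsp90b1 encodes GRP94, the Hsp90 chaperone of the ER, and Pdia4 encodes a protein disulfide isomerase. The 3 genes lie on chromosomes 2, 10 and 6. The ER stress response element (ERSE), known from promoters of ER chaperone genes, was searched on both strands of the 250 bases before each RefSeq gene start as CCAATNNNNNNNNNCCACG. A relaxed form, CCAATNNNNNNNNNCCA, is contained in every full match. The full form was in 37 of 32851 windows (0.113%), and the relaxed form in 321 (0.977%). Among the members, Hspa5 and Hsp90b1 held the full form, and Pdia4 and Herpud1 only the relaxed form. Herpud1 was called in no comparison, and its window is given further below. The windows of Hspa5, Hsp90b1 and Pdia4 are shown here because they belong to the folding genes called against sham. They are printed 5′ to 3′ on the strand of the gene (RefSeq, GRCm38.p6), with the fixed letters of every match, on either strand, in capitals. They cover chr2:34771840-34772089 (plus strand) for Hspa5, chr10:86705445-86705694 (minus strand) for Hsp90b1 and chr6:47813513-47813762 (minus strand) for Pdia4.
Hspa5: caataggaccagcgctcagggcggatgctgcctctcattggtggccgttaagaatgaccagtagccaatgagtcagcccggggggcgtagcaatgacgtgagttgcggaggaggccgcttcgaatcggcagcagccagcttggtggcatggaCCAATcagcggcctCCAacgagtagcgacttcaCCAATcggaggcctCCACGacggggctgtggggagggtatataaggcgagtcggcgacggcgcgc
Hsp90b1: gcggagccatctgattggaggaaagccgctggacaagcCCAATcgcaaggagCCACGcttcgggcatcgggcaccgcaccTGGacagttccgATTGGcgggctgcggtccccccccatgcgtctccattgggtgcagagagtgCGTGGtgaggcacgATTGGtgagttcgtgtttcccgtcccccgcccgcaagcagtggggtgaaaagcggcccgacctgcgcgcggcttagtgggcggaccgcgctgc
Pdia4: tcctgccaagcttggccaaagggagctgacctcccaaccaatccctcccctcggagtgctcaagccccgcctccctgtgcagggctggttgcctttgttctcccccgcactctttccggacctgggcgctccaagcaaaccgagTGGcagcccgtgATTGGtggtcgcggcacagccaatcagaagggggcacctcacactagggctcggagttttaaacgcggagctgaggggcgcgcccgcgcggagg
In the Hspa5 window the full match spanned 65 to 47 bases before the start, and a relaxed match spanned 98 to 82. The Hsp90b1 window held full matches at 212 to 194 and, on the other strand, at 107 to 89 bases, and another relaxed match at 170 to 154. The Pdia4 match lay on the other strand at 106 to 90 bases. A match of letters is a description and does not show binding of a factor. For Hspa5 and Hsp90b1, GENCODE M21 places the start of its gene model inside the window. The Hspa5 matches lie after that GENCODE start, inside the gene model, and the Hsp90b1 matches lie before it.

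Hspa5 (ENSMUSG00000026864, mm10 chromosome 2, 34771970 to 34777547) was at 296, 327, 265, 239 and 325 CPM in sham replicates 1 to 5. It was at 531, 506, 439.5, 279 and 327 CPM in ICH replicates 1 to 5, and at 461, 553, 518, 516 and 535 CPM in NYKD replicates 1 to 5. The NYKD libraries were close together and all above sham, while ICH replicates 4 and 5 lay at the sham level and the other 3 near NYKD. Against sham, Hspa5 rose 1.43-fold in ICH, a log2 fold change of 0.52 ± 0.17 (SE; edgeR adjusted p = 0.0461). Of the 5 ICH libraries, 4 were above every sham library, by a margin under 1 CPM for replicate 5. This call was kept without ICH replicate 4 (0.63, edgeR adjusted p = 0.0105) and without ICH replicate 5 (0.60, edgeR adjusted p = 0.0326). It was lost without any 1 of the other 13 libraries, with edgeR adjusted p from 0.0571 without NYKD replicate 5 to 0.113 without sham replicate 3. In NYKD, Hspa5 rose 1.78-fold against sham (log2 0.83 ± 0.17, edgeR adjusted p = 0.00234), a call kept on the omission of each of the 15 libraries. Its difference between NYKD and ICH was 0.31 ± 0.17 on the log2 scale (edgeR adjusted p = 0.288), and 0.20 without ICH replicate 4 (edgeR adjusted p = 0.518).

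Hsp90b1 (ENSMUSG00000020048, chromosome 10, 86690209 to 86705509) was at 309, 323, 289, 276 and 308 CPM in the sham libraries. In ICH it was at 444, 417, 431, 205 and 279 CPM, and in NYKD at 442, 503, 436, 449.65 and 509 CPM, in replicate order. As with Hspa5, ICH replicates 4 and 5 were the low ones, with replicate 4 below every sham library, and all NYKD libraries were above sham. In ICH the log2 fold change of 0.24 ± 0.18 against sham was not called (edgeR adjusted p = 0.391), and without ICH replicate 4 it was 0.39 (edgeR adjusted p = 0.0800). Without ICH replicate 1 or 3 it was 0.15 or 0.16 (edgeR adjusted p = 0.632 and 0.642). In NYKD, Hsp90b1 rose 1.55-fold against sham (log2 0.64 ± 0.18, edgeR adjusted p = 0.0182). That call was kept on the omission of each of the 15 libraries, with adjusted p up to 0.0471. Between NYKD and ICH it had the only unadjusted p under 0.05 among the members (0.0427), with a log2 difference of 0.40 ± 0.18 and an edgeR adjusted p of 0.198. Without ICH replicate 4 that difference was 0.26. Exons of Hsp90b1 overlap those of 1810014B01Rik on the opposite strand by 415 bases, and that gene had 910 counts in all libraries against 91467 for Hsp90b1.

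Pdia4 (ENSMUSG00000025823, chromosome 6, 47796141 to 47813430) was at 51.6, 60.5, 46.9, 43.0 and 72.3 CPM in sham. In ICH it was at 116, 123, 136, 63.4 and 88.2 CPM, and in NYKD at 97.4, 126, 127, 102 and 151 CPM. Only ICH replicate 4 reached into the sham range, and NYKD did not overlap sham. Pdia4 rose 1.92-fold in ICH (log2 0.94 ± 0.20, edgeR adjusted p = 0.00413) and 2.20-fold in NYKD (1.13 ± 0.20, edgeR adjusted p = 0.000740) against sham. Both calls were kept on the omission of each of the 15 libraries. NYKD and ICH differed by 0.19 ± 0.20 on the log2 scale (edgeR adjusted p = 0.598), by 0.061 without ICH replicate 4, by 0.10 without NYKD replicate 5 and by 0.31 without ICH replicate 3.

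Of 22 other ER chaperones and folding enzymes, 6 rose and 0 fell in ICH against sham, with a median log2 fold change of 0.30 against 0.045 over all tested genes. The called share was 27.3%, against 17% of all genes. The 6 were Pdia3, P4hb, Sdf2l1, Manf, Creld2 and Uggt1. P4hb, which encodes the founding protein disulfide isomerase, was at 172 CPM in sham and 285 in ICH (log2 0.73 ± 0.15, edgeR adjusted p = 0.00262). Sdf2l1, a partner of BiP, went from 14.6 to 28.4 CPM (0.96 ± 0.25, edgeR adjusted p = 0.0146). Against sham, 10 rose and 1 fell in NYKD, a called share of 50% against 23.4% of all genes, with a median of 0.46 against -0.024. P4hb rose by 1.01 ± 0.15 (edgeR adjusted p = 0.000132) and Uggt1, which tags misfolded glycoproteins for another folding round, by 0.84 ± 0.12 (edgeR adjusted p = 0.000142). The gene that fell was Fkbp2, an ER prolyl isomerase, from 59.8 to 34.6 CPM (-0.79 ± 0.25, edgeR adjusted p = 0.0285), named after its value was seen. Its call was lost without sham replicate 1, 2 or 3 or NYKD replicate 2, 4 or 5 (edgeR adjusted p from 0.0514 to 0.0687). No gene of the list was called between NYKD and ICH, with a median of 0.19 against -0.012 over all genes. The full ERSE was found in 5 of the 16 list genes that had a promoter window (Calr, Canx, Creld2, Dnajc3 and Pdia6).

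**Figure D2:**
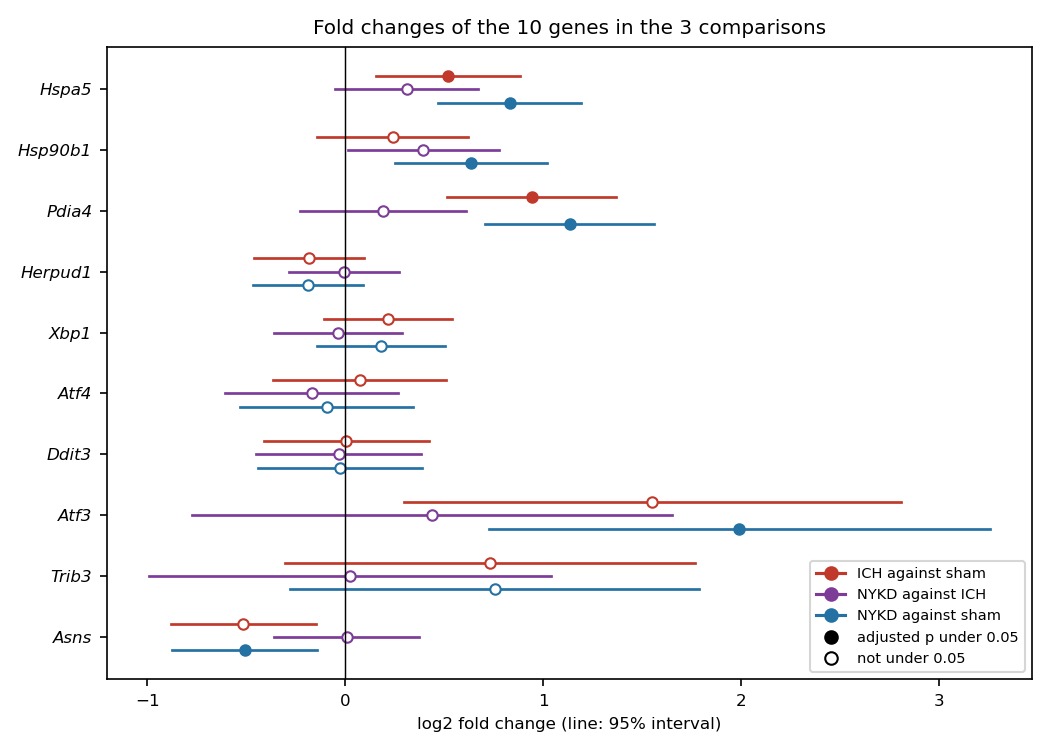
Log2 fold changes of the 10 genes (horizontal axis) in the 3 comparisons, with 95% intervals as lines; filled points have an adjusted p under 0.05. Filled points lie right of 0 for Hspa5 and Pdia4 in both comparisons with sham and for Hsp90b1 and Atf3 in NYKD against sham, and left of 0 for Asns in NYKD against sham.

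Herpud1 encodes an ER membrane protein that assembles the machinery of ER-associated degradation, by which misfolded proteins are moved to the cytosol and destroyed. Its window held letters of 3 kinds, which is why it is shown beside values that did not pass. These were ERSE-II (ATTGG, 1 base of any kind and CCACG, described in the human HERPUD1 promoter), in 10 of 32851 windows (0.0304%), the relaxed ERSE, and the C/EBP-ATF response element (CARE, TGATGNAA) bound by ATF4 complexes, in 1134 windows (3.45%). The window covers chr8:94386179-94386428 (plus strand, GRCm38.p6), with match letters in capitals as above.
Herpud1: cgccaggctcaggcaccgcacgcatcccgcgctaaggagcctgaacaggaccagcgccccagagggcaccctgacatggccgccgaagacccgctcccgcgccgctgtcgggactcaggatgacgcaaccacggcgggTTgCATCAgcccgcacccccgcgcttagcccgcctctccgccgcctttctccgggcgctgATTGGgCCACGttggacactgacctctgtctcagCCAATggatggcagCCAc
The ERSE-II match spanned 52 to 42 bases before the start, the relaxed ERSE 18 to 2, and the CARE match, on the other strand, 112 to 105. Herpud1 (ENSMUSG00000031770, chromosome 8, 94386438 to 94395377) was at 84.5, 63.4, 72.0, 52.6 and 66.3 CPM in sham. It was at 62.6, 56.8, 63.3, 61.6 and 54.1 CPM in ICH and at 58.9, 53.5, 66.6, 68.4 and 50.2 CPM in NYKD. The 3 groups overlapped, with sham replicate 1 the highest library. The log2 difference was -0.18 ± 0.13 in ICH against sham (95% interval -0.46 to 0.096, edgeR adjusted p = 0.370) and -0.19 ± 0.13 in NYKD against sham (-0.47 to 0.091, edgeR adjusted p = 0.322). Without sham replicate 1 these were -0.091 and -0.086 (edgeR adjusted p = 0.680 and 0.685). Between NYKD and ICH the 95% interval was -0.28 to 0.27, and the estimate was -0.0043 (edgeR adjusted p = 0.988).

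Of 18 other genes of ER-associated degradation, 2 rose and 0 fell in ICH against sham, 11.1% against 17% of all genes. They were Edem1 and Edem2, which act in the trimming of sugars on misfolded glycoproteins. Edem1 was at 40.6 CPM in sham, 95.2 in ICH and 123 in NYKD. Its log2 fold change against sham was 1.23 ± 0.21 in ICH (edgeR adjusted p = 0.000942) and 1.60 ± 0.21 in NYKD (edgeR adjusted p = 6.91e-05). Edem2 rose by 0.58 ± 0.14 in ICH (edgeR adjusted p = 0.00870) and by 0.65 ± 0.14 in NYKD (edgeR adjusted p = 0.00312). Of the 18, 6 rose and 0 fell in NYKD against sham, 33.3% against 23.4% of all genes, with a median of 0.22 against -0.024. Of 20 genes of ER entry and secretory transport, 2 rose in ICH and 3 in NYKD against sham, and 0 fell. These shares, 10% and 15%, lay below the 17% and 23.4% of all genes, and the list medians were 0.15 and 0.28. Sec24d, a coat subunit of vesicles leaving the ER, rose by 0.72 ± 0.14 in ICH (edgeR adjusted p = 0.00229) and by 1.22 ± 0.14 in NYKD (edgeR adjusted p = 1.94e-05). Sec61a1, the channel through which proteins enter the ER, rose by 0.53 ± 0.14 in ICH (edgeR adjusted p = 0.0145) and by 0.99 ± 0.14 in NYKD (edgeR adjusted p = 0.000103). No gene of either list was called between NYKD and ICH.

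Among the transcription factors, Xbp1 encodes the factor that IRE1 activates by splicing. Xbp1 (ENSMUSG00000020484, chromosome 11, 5520659 to 5525893) was at 72.2, 82.4, 80.6, 72.2 and 123 CPM in sham. It was at 109, 105, 86.5, 116 and 84.5 CPM in ICH and at 83.7, 104, 94.5, 106 and 100.1 CPM in NYKD. Of the sham libraries 4 lay below every ICH and NYKD library, and sham replicate 5 lay above all of them. The log2 difference from sham was 0.22 ± 0.15 in ICH (95% interval -0.11 to 0.54, edgeR adjusted p = 0.361) and 0.18 ± 0.15 in NYKD (-0.14 to 0.50, edgeR adjusted p = 0.417). Without sham replicate 5 these were 0.34 and 0.32 (edgeR adjusted p = 0.0876 and 0.0766). Between NYKD and ICH it was -0.035 ± 0.15 (edgeR adjusted p = 0.918).

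Atf4 (ENSMUSG00000042406, chromosome 15, 80255184 to 80257541) encodes the effector of the integrated stress response, which is set mostly by translation. It was at 141, 104, 99.8, 81.6 and 58.8 CPM in sham, at 77.6, 116, 113, 133 and 70.8 CPM in ICH, and at 87.1, 88.9, 86.1, 101 and 91.7 CPM in NYKD. The NYKD libraries all lay inside the range of both other groups. No difference was called, with 95% intervals of the log2 difference of -0.36 to 0.51 in ICH against sham, -0.53 to 0.34 in NYKD against sham and -0.61 to 0.27 in NYKD against ICH (edgeR adjusted p = 0.840, 0.784 and 0.664).

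Ddit3 encodes CHOP, the transcription factor that links lasting ER stress to cell death. It (chromosome 10, 127290774 to 127296288) was at 26.0, 28.05, 18.7, 19.5 and 21.7 CPM in sham. It was at 13.6, 27.2, 23.7, 28.8 and 21.2 CPM in ICH and at 20.2, 23.25, 30.2, 19.3 and 19.0 CPM in NYKD. The 3 groups overlapped, with ICH replicate 1 the lowest library, and had means of 22.8 ± 4.07, 22.9 ± 5.98 and 22.4 ± 4.66 CPM (SD, n = 5). The log2 difference was 0.0064 ± 0.20 in ICH against sham (95% interval -0.41 to 0.42, edgeR adjusted p = 0.987), -0.032 ± 0.20 in NYKD against ICH (-0.45 to 0.38, edgeR adjusted p = 0.941) and -0.026 ± 0.20 in NYKD against sham (-0.44 to 0.39, edgeR adjusted p = 0.943). Its sign in ICH against sham was negative with RLE size factors (-0.031). The exons of Ddit3 overlap those of Mars by 68 bases on the opposite strand, and without strand information reads there cannot be assigned. Mars had 12626 counts in all libraries against 5514 for Ddit3. The other Ensembl gene of the symbol Ddit3, with 0 counts, overlaps its exons by 105 bases on the same strand. No match of the 4 motifs was found in its window.

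Atf3 encodes a factor induced early by many stresses, including injury of neurons. Its window (chr1:191183334-191183583, minus strand, GRCm38.p6) is shown because it held a CARE match, at 110 to 103 bases before the start on the other strand. It lies inside the longer GENCODE gene model, which has further starts.
Atf3: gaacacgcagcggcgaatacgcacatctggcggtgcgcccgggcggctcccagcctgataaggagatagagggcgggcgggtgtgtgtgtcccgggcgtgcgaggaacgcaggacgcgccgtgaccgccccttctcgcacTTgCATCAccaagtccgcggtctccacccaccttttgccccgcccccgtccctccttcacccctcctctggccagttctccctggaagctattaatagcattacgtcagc
Atf3 (ENSMUSG00000026628, chromosome 1, 191170296 to 191218039) was at 22.4, 17.4, 5.70, 9.21 and 0.639 CPM in sham. It was at 20.9, 55.7, 46.5, 18.7 and 20.6 CPM in ICH and at 30.9, 51.6, 54.1, 29.0 and 54.6 CPM in NYKD. Sham replicate 5 was far below the rest, ICH overlapped sham through sham replicate 1, and NYKD lay wholly above sham. Atf3 rose in NYKD against sham, with a log2 fold change of 1.99 ± 0.59 (3.98-fold, edgeR adjusted p = 0.0255). The edgeR adjusted p passed 0.05 without sham replicate 3 (0.0700), sham replicate 4 (0.0547), NYKD replicate 3 (0.0539) or NYKD replicate 5 (0.0568). In ICH against sham it was 1.55 ± 0.59 and not called (edgeR adjusted p = 0.0829), but called without sham replicate 1 (1.99, edgeR adjusted p = 0.0419). Between NYKD and ICH it was 0.44 ± 0.57 (edgeR adjusted p = 0.683).

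Of 12 tested genes in the list of other unfolded protein response sensors and transcription factors, 4 rose in ICH against sham (Cebpb, Creb3l1, Creb3l2 and Nupr1) and 0 fell, 33.3% against 17% of all genes. Creb3l3, the 13th listed gene, did not pass the filter. Nupr1, a small stress-induced chromatin protein, was at 4.63 CPM in sham and 18.3 in ICH (log2 1.98 ± 0.37, edgeR adjusted p = 0.00178). Creb3l1, an ER membrane factor cut under stress like ATF6, was at 3.70 CPM in sham and 11.6 in ICH (1.64 ± 0.34, edgeR adjusted p = 0.00333). In NYKD against sham 6 rose, these 4 with Cebpg and Ern1, and 0 fell, 50% against 23.4% of all genes. Creb3l2, a related ER membrane factor, was at 21.2 CPM in sham and 48.5 in NYKD (1.20 ± 0.17, edgeR adjusted p = 0.000128), and Creb3l1 was 1.77 ± 0.34 higher (edgeR adjusted p = 0.00135). Medians were 0.25 in ICH and 0.35 in NYKD, against 0.045 and -0.024 over all genes. Ern1, which encodes IRE1, was 0.78 ± 0.16 higher in NYKD than in sham (edgeR adjusted p = 0.00215). It is named because it encodes a sensor, after its value was seen. No gene of the list was called between NYKD and ICH.

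The list of 13 eIF2 genes held the kinases, the phosphatase subunits and the exchange factor, with Eif2s1 and Impact. Of these 13, 1 rose in ICH against sham and 2 in NYKD against sham, and 0 fell. These shares, 7.69% and 15.4%, lay below the 17% and 23.4% of all genes, and the list medians were 0.15 and 0.073. Eif2ak2 encodes PKR, the eIF2 kinase that double-stranded RNA activates and interferon induces. It was at 9.58 CPM in sham, 26.8 in ICH and 35.8 in NYKD, log2 fold changes of 1.48 ± 0.22 (edgeR adjusted p = 0.000342) and 1.90 ± 0.22 (edgeR adjusted p = 2.14e-05). Eif2ak3, which encodes PERK, was at 27.0 CPM in sham and 43.2 in NYKD (0.68 ± 0.14, edgeR adjusted p = 0.00185).

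Trib3 encodes a pseudokinase induced by ATF4 and CHOP. Trib3 (ENSMUSG00000032715, chromosome 2, 152337422 to 152344032) had 5 to 64 counts per library, the least of the members. It was at 1.85, 2.11, 2.18, 0.329 and 1.39 CPM in sham, at 1.28, 2.66, 1.65, 4.52 and 3.03 CPM in ICH, and at 2.54, 3.08, 3.72, 0.641 and 3.35 CPM in NYKD. In NYKD 4 libraries were above every sham library, and replicate 4 was lower than all 15 but sham replicate 4. The log2 difference from sham was 0.73 ± 0.49 in ICH (95% interval -0.30 to 1.77, edgeR adjusted p = 0.330) and 0.76 ± 0.49 in NYKD (-0.28 to 1.79, edgeR adjusted p = 0.279). Without sham replicate 4 these were 0.47 and 0.50, and the first was 0.44 without ICH replicate 4. Between NYKD and ICH the interval was -0.99 to 1.04 (edgeR adjusted p = 0.983). These intervals were wider than those of every other member but Atf3.

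Asns encodes asparagine synthetase, and the human gene's promoter is where an amino acid response element of the CARE type was mapped. The mouse window (chr6:7693210-7693459, minus strand, GRCm38.p6) is shown because Asns moved the other way from the chaperones. Its CARE match lay at 23 to 16 bases before the RefSeq start. The GENCODE gene model starts inside the window, upstream of this match, so the match lies inside that model.
Asns: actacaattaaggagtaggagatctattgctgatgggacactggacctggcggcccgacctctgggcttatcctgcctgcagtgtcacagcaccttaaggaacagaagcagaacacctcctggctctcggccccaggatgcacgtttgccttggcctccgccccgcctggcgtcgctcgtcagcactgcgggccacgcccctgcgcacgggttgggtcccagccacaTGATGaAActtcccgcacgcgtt
Asns (ENSMUSG00000029752, chromosome 6, 7675169 to 7693254) was at 97.0, 73.9, 95.7, 76.7 and 124 CPM in sham. It was at 63.5, 64.7, 69.8, 73.5 and 55.9 CPM in ICH and at 66.8, 59.7, 57.8, 94.6 and 50.1 CPM in NYKD. Every ICH library was below every sham library, by under 1 CPM at the closest pair, and 4 of 5 NYKD libraries were. Asns fell by 0.51 ± 0.17 on the log2 scale in NYKD against sham (edgeR adjusted p = 0.0436). In ICH against sham the log2 difference was -0.51 ± 0.17 and missed the threshold (edgeR adjusted p = 0.0510). Both lay close to 0.05. The NYKD call was kept without sham replicate 2, sham replicate 4, ICH replicate 1, ICH replicate 4 or NYKD replicate 4 (edgeR adjusted p from 0.00744 to 0.0498). It was lost without any of the other 10 libraries, with edgeR adjusted p from 0.0522 without ICH replicate 5 to 0.124 without NYKD replicate 5. ICH against sham was called without sham replicate 2, sham replicate 4, ICH replicate 4, NYKD replicate 4 or NYKD replicate 5 (edgeR adjusted p from 0.0257 to 0.0484). NYKD and ICH differed by 0.0077 ± 0.17 (edgeR adjusted p = 0.984). The summed level of the pan-neuronal markers was 4516 to 6274 CPM in sham, 2943 to 3797 in ICH and 2739 to 5817 in NYKD. Sham replicate 5 and NYKD replicate 4 were the highest of their groups in this sum and in Asns. The part of neuronal content in the fall of Asns was not tested.

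Of 28 tested genes in the list of other ATF4-driven amino acid and redox genes, 4 rose and 1 fell in ICH against sham, 17.9% against 17% of all genes, with a median of -0.011 against 0.045. The risers were Eif4ebp1, Sesn2, Slc3a2 and Slc7a11. Fgf21 did not pass the filter. Eif4ebp1, a repressor of cap-dependent translation, was at 2.94 CPM in sham and 12.2 in ICH (log2 2.05 ± 0.33, edgeR adjusted p = 0.000551). Slc7a11, the cystine transporter subunit, was at 32.9 and 86.3 CPM (1.39 ± 0.26, edgeR adjusted p = 0.00178). The gene that fell was Slc6a9, a glycine transporter, by 0.69 ± 0.23 (edgeR adjusted p = 0.0488), a call kept without ICH replicate 2 or NYKD replicate 4 and lost without any of the other 13 libraries (edgeR adjusted p from 0.0542 to 0.111). Against sham, 7 rose and 0 fell in NYKD, 25% against 23.4% of all genes, with a median of 0.20 against -0.024. Both shares lay near the background. Slc7a11 was at 136 CPM there (2.05 ± 0.27, edgeR adjusted p = 5.48e-05) and Eif4ebp1 at 15.1 CPM (2.36 ± 0.33, edgeR adjusted p = 0.000103). Several of these genes are also known as targets of other factors, NRF2 in the case of Slc7a11. CARE was found in 8 of the 23 list genes with a promoter window. Other than Slc6a9 and Fkbp2, all list genes given with values against sham kept their calls on the omission of each of the 15 libraries.

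Of 10 genes tied to death under ER stress, 5 rose in ICH against sham and 5 in NYKD against sham, and 0 fell. That is 50% in each, against 17% and 23.4% of all genes, with list medians of 0.60 and 0.70. In both comparisons these were Bak1, Bcl2l11, Casp12, Pmaip1 and Tnfrsf10b. Tnfrsf10b, a TRAIL receptor gene that CHOP can induce, was at 1.07 CPM in sham, 5.11 in ICH (log2 2.25 ± 0.38, edgeR adjusted p = 0.000746) and 4.65 in NYKD (2.11 ± 0.37, edgeR adjusted p = 0.000707). Bcl2l11, which encodes the BH3-only protein BIM, was at 6.31, 16.2 and 19.1 CPM in sham, ICH and NYKD (1.36 ± 0.25, edgeR adjusted p = 0.00135 and 1.60 ± 0.25, edgeR adjusted p = 0.000228). Bcl2l11 and Bak1 are also expressed by immune cells, whose markers rose in the same comparisons. The part of such cells in the rise of any gene of this list was not tested.

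**Figure D3:**
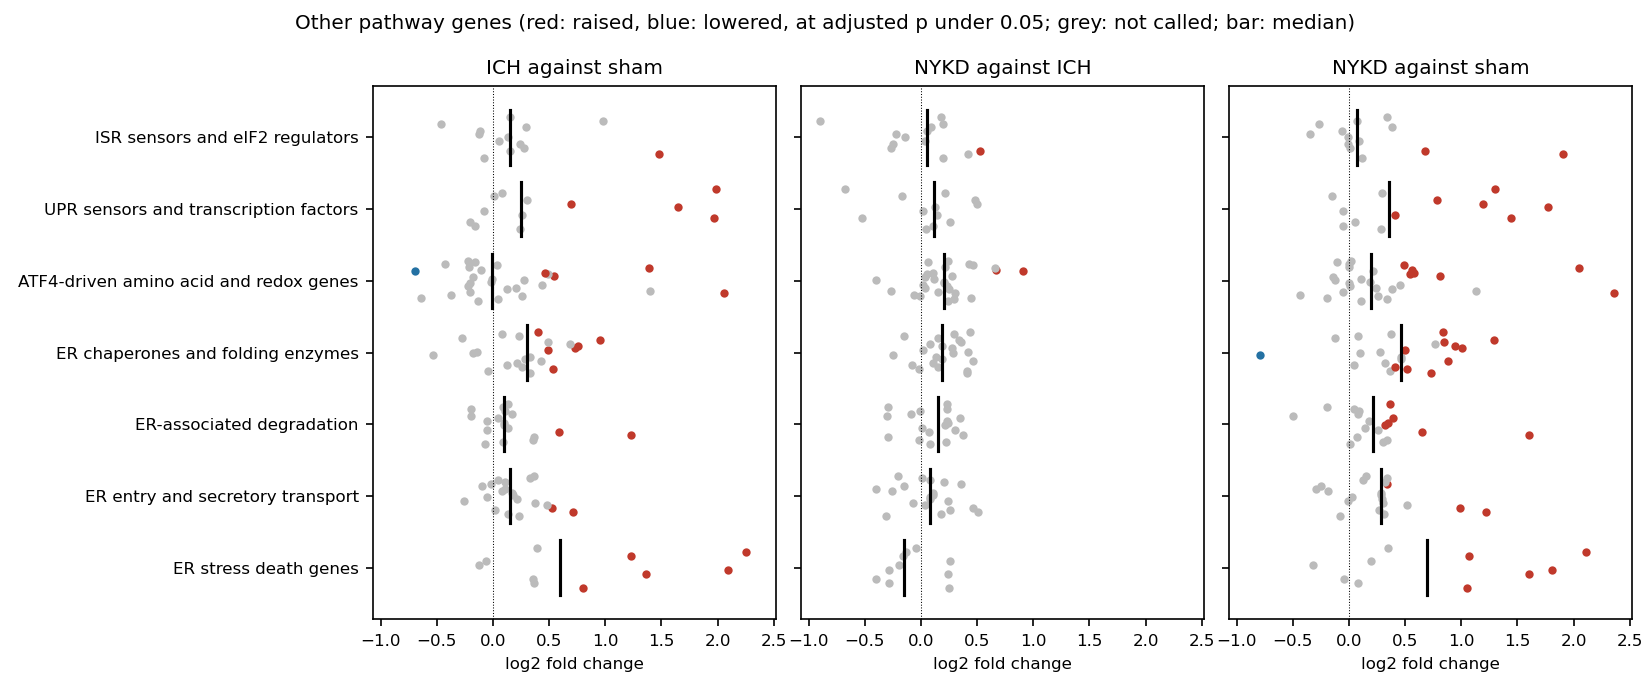
Log2 fold changes (horizontal axis) of the tested genes of the 7 lists of other pathway genes in the 3 comparisons; red points rose and blue points fell at an adjusted p under 0.05, grey points were not called, and bars are list medians. Most red points are in the panels against sham, where 24 and 39 of 123 genes rose, and 3 genes rose in NYKD against ICH.

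Across the 7 lists, 123 of 125 genes were tested. In ICH against sham 24 rose and 1 fell, 20.3% of the 123 against 17% of all genes, with a median of 0.15. In NYKD against sham 39 rose and 1 fell, 32.5% against 23.4% of all genes, with a median of 0.29. In NYKD against ICH 3 rose and 0 fell, 2.44% against 3.46% of all genes, with a median of 0.13. These 3 were Slc7a1, Eif2ak3 and Slc6a9. Slc7a1, an arginine and lysine transporter, was at 42.7 CPM in ICH and 67.8 in NYKD (log2 0.67 ± 0.12, edgeR adjusted p = 0.0298). Eif2ak3 was at 29.9 and 43.2 CPM (0.53 ± 0.14, edgeR adjusted p = 0.0439), and Slc6a9 at 34.3 and 64.2 CPM (0.91 ± 0.23, edgeR adjusted p = 0.0438). Without ICH replicate 4 the adjusted p was 0.0602 for Slc7a1, 0.0871 for Eif2ak3 and 0.0797 for Slc6a9 in edgeR, and 0 pathway genes were called there. Slc7a1 also lost its call without ICH replicate 5 or NYKD replicate 1, 3, 4 or 5 (edgeR adjusted p from 0.0563 to 0.0877). Eif2ak3 kept it without sham replicate 1 or 5 or ICH replicate 1 or 3, and Slc6a9 without sham replicate 1 or 5 or ICH replicate 1 or 2, and both lost it without each other library (edgeR adjusted p up to 0.116 and 0.107). The count was also 0 without ICH replicate 5 or NYKD replicate 1, 3, 4 or 5. It was 1 without sham replicate 2, 3 or 4 or NYKD replicate 2, 2 without ICH replicate 2 or 3, 7 without sham replicate 5 and 10 without ICH replicate 1. Over all genes 625 were called, and 0 to 9 without ICH replicate 4 or 5 or NYKD replicate 1, 3, 4 or 5. There were 241 to 363 without sham replicate 2 or 3, ICH replicate 2 or 3 or NYKD replicate 2, and 1494 and 1508 without sham replicate 5 and ICH replicate 1.

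The treatment comparison for the members themselves rested on small differences. In NYKD against ICH the estimates ran from -0.17 for Atf4 to 0.44 for Atf3 on the log2 scale, and 0 of 10 members were called by edgeR, DESeq2 or limma-voom. At an unadjusted p under 0.05, edgeR gave 1 member, Hsp90b1. The libraries of the groups did not overlap for 0 of 10 members, against 7.79% of all genes. The 95% intervals reached 0.67 for Hspa5, 0.78 for Hsp90b1 and 0.61 for Pdia4, so changes of those sizes are inside them. The spread within the ICH group was larger than in NYKD for the chaperones. The SD of Hspa5 was 110 CPM in ICH and 34.4 in NYKD around means of 416 and 517, and that of Hsp90b1 was 107 and 35.2 around 355 and 468. Among the other members, the SD was also larger in ICH for Atf4, at 26.8 CPM against 6.07 in NYKD. It was smaller in ICH for Asns (6.70 against 17.2 CPM) and Herpud1 (4.02 against 7.93 CPM). Replicates 4 and 5 made the low end of the ICH group for Hspa5 and Hsp90b1. Those replicates also had the highest striatal marker sums of the ICH group, and the part of tissue makeup in this spread was not tested.

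Levels of the members relative to each other were described as ratios of counts within a library, a choice made after the values were seen, with no test. Hspa5 counts per Ddit3 count were 11.4, 11.7, 14.2, 12.2 and 14.98 in sham, and 22.8, 23.8, 17.2, 26.7 and 28.1 in NYKD. In ICH they were 39.0, 18.6, 18.5, 9.69 and 15.4. NYKD lay wholly above sham, and ICH replicate 4 lay below every sham library. Hsp90b1 counts per Ddit3 count ran from 11.5 to 15.4 in sham and from 14.4 to 26.7 in NYKD, so these groups overlapped. Per Herpud1 count, Hsp90b1 ran from 3.65 to 5.25 in sham and from 6.54 to 10.1 in NYKD, without overlap. Pdia4 counts per Asns count were 0.532, 0.819, 0.490, 0.561 and 0.582 in sham, 1.83, 1.91, 1.96, 0.863 and 1.58 in ICH, and 1.46, 2.11, 2.20, 1.07 and 3.00 in NYKD. Here both haemorrhage groups lay above sham in every library, with ICH replicate 4 the closest. A raised member over a flat or lowered one gives a higher ratio, so these shifts above sham follow from the choice of pairs. Hspa5 counts per Hsp90b1 count moved less, with means of 0.962 ± 0.0744 in sham, 1.19 ± 0.121 in ICH and 1.11 ± 0.0625 in NYKD (SD, n = 5).

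**Figure D4:**
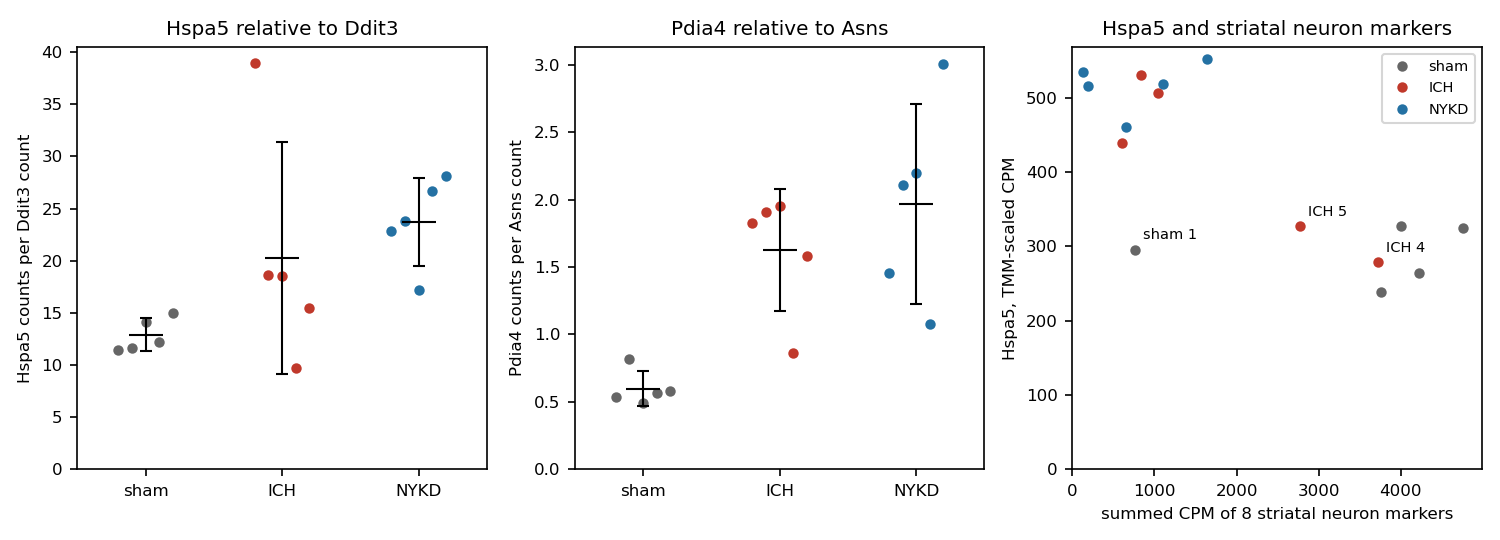
Left and middle, ratio of counts within each library for Hspa5 over Ddit3 and Pdia4 over Asns by group (points are libraries, bars are mean ± SD, n = 5). Right, TMM-scaled CPM of Hspa5 against the summed CPM of 8 striatal neuron markers, where ICH 4 and ICH 5 lie with 4 sham libraries at high marker sums and sham 1 has a low sum with Hspa5 at 296 CPM.

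The profile of Hspa5 over the 15 libraries was compared with those of 10789 genes of at least 10 CPM, as the root mean square difference of centred log2 CPM. The closest were Lamp1, a lysosomal membrane gene, at 0.126, Pdia6, an ER disulfide isomerase, at 0.160, Sh3glb1, a membrane-curving protein gene, at 0.161, and Stt3a, the catalytic subunit of an oligosaccharyltransferase of the ER, at 0.163. The median over all compared genes was 0.525. Among the members Hsp90b1 stood at 0.164 and Pdia4 at 0.241, while Xbp1 stood at 0.375, Herpud1 at 0.501, Ddit3 at 0.538, Atf4 at 0.552, Asns at 0.664, Trib3 at 0.719 and Atf3 at 1.22. Lamp1 was at 418 ± 32.3 CPM in sham, 563 ± 111 in ICH and 724 ± 90.3 in NYKD (SD, n = 5). For Ddit3 the closest were Gtf2f1, a subunit of a general transcription factor, at 0.166, Selenos, an ER selenoprotein gene of ER-associated degradation, at 0.183, Ccdc115, a proton pump assembly factor gene, at 0.193, and Psenen, a gamma-secretase subunit gene, at 0.194. Its median over all genes was 0.442.

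Markers of several cell types rose or fell between groups, not always along with the chaperones, and their part in the results was not tested. All 8 reactive astrocyte markers rose in both comparisons with sham, with summed levels of 539 to 1910 CPM in sham, 6054 to 7384 in ICH and 5193 to 7848 in NYKD. Of 7 tested monocyte and macrophage markers 6 rose in each, with sums of 16.7 to 253 CPM in sham, 394 to 1714 in ICH and 1025 to 2478 in NYKD. Of 5 tested neutrophil markers, 5 rose in ICH and 3 in NYKD. Their sums were 10.6 to 25.5 CPM in sham, 45.6 to 549 in ICH and 41.4 to 71.0 in NYKD. Fibroblast and pericyte markers rose in 3 of 8 cases in ICH and 6 of 8 in NYKD, with sums of 218 to 309 CPM in sham, 239 to 869 in ICH and 461 to 1937 in NYKD. Microglial markers rose in 4 of 8 and 6 of 8 cases. Their sums were 555 to 741 CPM in sham, 563 to 1513 in ICH and 1139 to 2113 in NYKD, so ICH overlapped sham. Striatal neuron markers fell in 0 of 8 cases in ICH and 5 of 8 in NYKD, and pan-neuronal markers in 3 of 8 and 2 of 8. Oligodendrocyte markers fell in 2 of 8 cases in ICH and 1 of 8 in NYKD, erythrocyte markers in 1 of 5 in ICH, and no choroid plexus or thalamic and cortical neuron marker was called. Choroid plexus sums ran from 18.8 to 5882 CPM over the libraries. None of the markers in these lists was at 0 in every library. Cxcr2, Ly6g, Mmp8, Retnlg and Ngp of the neutrophil list were at 0 in some libraries. So were Ly6c2, Arg1 and Plac8 of the monocyte list and Kcnj13 of the choroid plexus list. With sham replicate 1 and ICH replicate 4 left out together, Hspa5 was 0.64 (edgeR adjusted p = 0.0166) and Pdia4 1.06 (edgeR adjusted p = 0.00165) higher in ICH than in sham on the log2 scale, and Atf3 was called at 2.13 (edgeR adjusted p = 0.0376). In NYKD against sham the values were 0.85 for Hspa5, 0.65 for Hsp90b1, 1.12 for Pdia4 and 2.43 for Atf3 (edgeR adjusted p = 0.00167, 0.00579, 0.000497 and 0.0151), and Asns lost its call (edgeR adjusted p = 0.0721).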

How the data were processed

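Poly-A RNA was sequenced from 15 mouse brain samples, 5 per group, with groups taken from the sample titles. The deposited table holds raw counts per Ensembl gene, made by the authors without normalization. The submitters' processing notes name HISAT2 2.0.5, edgeR 3.22.5 and mm10, without roles, and the counting program, annotation and strandedness are not stated there. Nothing but the group size says that each library is a separate mouse.

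Symbols, positions and exon lengths came from GENCODE M21 (54409 of 54532 genes matched), and promoter windows (250 bases before the start) from RefSeq. No column was left unused. Genes were filtered with filterByExpr, leaving 18052, scaled by TMM and fitted in edgeR 4.0.16 (R 4.3.3) with a coefficient per group, no covariate and robust quasi-likelihood over all 15 libraries. The threshold was a Benjamini-Hochberg adjusted p of 0.05 over all genes. SE is the log2 fold change divided by the square root of F. CPM is TMM-scaled, with mean and SD over 5 libraries. The fit was tested on simulated data. DESeq2 1.42.0, limma-voom (limma 3.58.1), other scalings, filters and designs, and the omission of libraries made 25 alternatives.

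The 10 members, the 7 pathway lists, the 12 marker lists and the alternatives were chosen with earlier results of these data known. The result of 1 marker list is not reported here. Named pathway genes were the 2 called genes with the smallest p per list and comparison. Genes given as most like Hspa5 or Ddit3 were the 4 closest in profile with at least 10 CPM. Genes outside these rules were named after their values were seen. Depth was 13539203 to 19909140 counts per library, and intervals rest on the spread between these samples.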

Additional observations from a re-analysis of the deposited data

Results flagged for a closer look

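Of 30 groups of 5 libraries (10 genes in 3 groups), 1 held a library far from the others. Xbp1 was at 123.4 CPM in sham replicate 5, while the next sham library was at 82.38 CPM, a gap of 0.801 of the group's range against a critical value of 0.71. Chance alone flags about 1 group in 20. Without sham replicate 5, Xbp1 was 0.34 higher on the log2 scale in ICH than in sham (edgeR adjusted p = 0.0876).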

How the results depend on the processing

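With the omission of 1 library at a time, called members numbered 1 to 3 in ICH against sham, 0 in NYKD against ICH and 3 to 5 in NYKD against sham, and called pathway genes 19 to 27, 0 to 10 and 27 to 44. Called genes numbered 2127 to 3270, 0 to 1508 and 2810 (without NYKD replicate 5) to 4784. In ICH against sham 1 member was called with no filter, with the replicate block or with only the 2 groups fitted. In NYKD against sham 3 were called with no filter. In NYKD against ICH, 1817 genes were called with DESeq2, 387 with limma-voom and 0 with the block, and pathway genes numbered 14 with DESeq2, 0 with the block and 1 with library totals, 2 groups or limma-voom. The cause was not tested. Hspa5 lost its call in ICH against sham with RLE (edgeR adjusted p = 0.0615), no filter (0.0804), the block (0.0724), 2 groups (0.106) or limma-voom (0.0581), and Asns its call in NYKD against sham with no filter (0.0767) or the block (0.0712). Asns was called in ICH against sham with RLE (0.0342), the 1 CPM filter or DESeq2 (0.0225). Atf3 lost its call in NYKD against sham with no filter (0.0820) and gained 1 in ICH against sham with limma-voom (0.0361).

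Among the members, signs turned only in comparisons where the member was not called. Ddit3 in ICH against sham was -0.031 with RLE, -0.0062 with no filter, -0.017 with the block, -0.033 with DESeq2 and -0.027 with limma-voom, and in NYKD against ICH 0.0038 with no filter. In NYKD against ICH, Trib3 was -0.042 with library totals, -0.14 with the block and -0.031 with limma-voom, Herpud1 0.014 with RLE, 0.030 with no filter and 0.018 with DESeq2, and Asns -0.079 with library totals, -0.0053 with the 1 CPM filter, -0.0064 with the block, -0.015 with 2 groups and -0.021 with limma-voom. With 1 library left out, the ranges in ICH against sham were -0.091 to 0.14 for Ddit3 and -0.097 to 0.25 for Atf4. In NYKD against ICH they were -0.17 to 0.071 for Ddit3, -0.15 to 0.32 for Trib3, -0.085 to 0.031 for Xbp1, -0.048 to 0.055 for Herpud1 and -0.15 to 0.094 for Asns. In NYKD against sham they were -0.15 to 0.063 for Ddit3 and -0.26 to 0.092 for Atf4.

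The labels state no pairing by replicate number, and correlations of the deviations of same-numbered libraries were mixed (-0.314 to 0.244), so pairing was not shown and the block was kept as an alternative.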
